A study of Mus musculus with 18 samples.

Results

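The sites described here are 390 regions of liver chromatin that were accessible in nearly every mouse strain of the study but to different degrees. They were selected on 2 criteria. First, they belong to the deposited list of variable sites, which the authors drew up from a DESeq comparison of read counts among the 7 inbred strains. Second, they lie on an autosome and a peak overlapped them by at least 1 bp in 6 or 7 of the 7 inbred peak lists. Of 2507 autosomal variable sites, 206 were called in 6 strains and 184 in all 7, and the union of the 7 lists holds 50775 sites in all. The variable list and the peak calls come from the same libraries as the signal values below, so differences among the inbred strains at these sites are given as a description and carry no test. The 2 recombinant strains played no part in the choice.

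Livers came from male mice of 7 inbred strains (C57BL/6J, C3H/HeJ, DBA/2J, A/J, AKR/J, CBA/J, BALB/cJ) and of BXH2/TyJ and BXH19/TyJ, which are recombinant inbred strains in which each chromosome segment descends from either C57BL/6J or C3H/HeJ. The mice were 8 weeks old when they were put on the HF/HS diet, which is rich in fat and sucrose. It lasted 8 weeks and was given to every group, so no comparison with another diet is possible. Each strain is represented by 2 mice, or 18 samples, and the files combine both into 1 peak list, so that values per strain have no replicate error. Formaldehyde-assisted isolation of regulatory elements (FAIRE-seq) sequences the DNA that is not held by nucleosomes in fixed tissue. The signal of a peak is the score of the F-seq caller, on a scale of its own in each list. It was therefore expressed as a percentile among all peaks of the strain's list, where 100 is the strongest peak, and differences between percentiles are called points. The lists hold no read counts, so no depth stands beside a value.

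The 9 lists held 26769 (DBA/2J) to 30613 (CBA/J) peaks, with a median signal between 0.118 and 0.641. A peak lay within 1 kb of a start of each of the 8 hepatocyte marker genes in at least 1 list and of 4 of them in all 9 lists, but of Alb, which encodes albumin, in only 2. A/J had such a peak at 4 of the 8 and was the only list without one at Ttr and Cyp2e1, and the other lists had 6 or 7. None of the 3 Kupffer cell markers had one in any list. Of 3 cholangiocyte markers, Sox9 had a peak in all 9 lists, Epcam in A/J alone and Krt19 in none. Of 3 stellate cell markers, Des had one in A/J alone, Reln in A/J and BALB/cJ and Lrat in C3H/HeJ, and of 2 endothelial markers Stab2 had one in 6 lists and Pecam1 in DBA/2J. The part of these differences in the standing of A/J was not tested. Of 6 genes of other tissues, 5 had none, and Ins2 had a peak in all 9 lists. In whole liver, fewer cells of a type and less accessibility per cell cannot be told apart.

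Accessible chromatin marks promoters, where transcription starts, and enhancers, which are bound by liver factors such as HNF4, FOXA and C/EBP and act on promoters at a distance. FAIRE recovers more DNA where nucleosomes are displaced in more cells or for longer, so its signal is graded. A site that is open in all strains but stronger in some can therefore differ in degree without being present or absent. Inbred strains are homozygous, so that all mice of a strain carry 1 haplotype at each site. Reads that match several places of the genome cannot be assigned to one, and tandem repeats such as the satellite DNA of the mouse centromeres are known for this.

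The range of levels is easiest to see beside the sequences. The windows below are 300 bp around the middle of 10 sites, on the plus strand of mm9, with each CG dinucleotide in capitals, since cytosines followed by guanines are where mammalian DNA is methylated. The first 4 had the widest ranges among the sites called in 7 strains, and they lie near Pisd-ps1 and Sfi1, at Gm10720, at Zfp960 and in intergenic sequence whose nearest gene is St3gal5.
Pisd-ps1, chr11:3027289-3027588: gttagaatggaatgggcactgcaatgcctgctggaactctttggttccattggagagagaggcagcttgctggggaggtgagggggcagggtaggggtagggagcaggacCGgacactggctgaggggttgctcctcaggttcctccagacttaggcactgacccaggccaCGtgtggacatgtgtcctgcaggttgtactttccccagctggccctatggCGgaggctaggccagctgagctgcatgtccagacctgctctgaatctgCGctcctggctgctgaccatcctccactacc
Gm10720, chr9:3015809-3016108: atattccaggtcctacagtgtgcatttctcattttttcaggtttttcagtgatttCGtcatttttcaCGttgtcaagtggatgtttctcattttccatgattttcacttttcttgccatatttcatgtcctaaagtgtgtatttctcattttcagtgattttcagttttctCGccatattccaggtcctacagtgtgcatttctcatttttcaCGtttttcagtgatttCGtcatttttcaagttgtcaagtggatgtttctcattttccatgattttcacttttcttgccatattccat
Zfp960, chr17:17200793-17201092: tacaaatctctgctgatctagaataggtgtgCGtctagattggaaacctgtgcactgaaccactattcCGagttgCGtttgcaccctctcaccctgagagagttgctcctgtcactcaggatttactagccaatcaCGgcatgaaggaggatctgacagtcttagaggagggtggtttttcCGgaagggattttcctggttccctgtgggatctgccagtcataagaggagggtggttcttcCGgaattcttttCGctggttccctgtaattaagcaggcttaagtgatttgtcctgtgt
St3gal5, chr6:72112133-72112432: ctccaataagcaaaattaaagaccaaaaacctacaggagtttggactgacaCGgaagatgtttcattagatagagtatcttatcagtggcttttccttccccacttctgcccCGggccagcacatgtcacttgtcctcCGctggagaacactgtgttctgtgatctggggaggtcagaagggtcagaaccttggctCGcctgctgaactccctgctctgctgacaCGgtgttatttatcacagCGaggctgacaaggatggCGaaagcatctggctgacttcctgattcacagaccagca
Ndel1 and Gm11167 were strong in 6 strains and not called in the seventh.
Ndel1, chr11:68666237-68666536: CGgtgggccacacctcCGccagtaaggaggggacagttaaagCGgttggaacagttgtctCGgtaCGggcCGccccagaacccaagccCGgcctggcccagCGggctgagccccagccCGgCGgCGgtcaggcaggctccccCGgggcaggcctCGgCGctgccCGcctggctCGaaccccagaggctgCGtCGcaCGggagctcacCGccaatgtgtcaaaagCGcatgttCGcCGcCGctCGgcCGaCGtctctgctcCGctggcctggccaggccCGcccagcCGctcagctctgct
Gm11167, chr9:3020364-3020663: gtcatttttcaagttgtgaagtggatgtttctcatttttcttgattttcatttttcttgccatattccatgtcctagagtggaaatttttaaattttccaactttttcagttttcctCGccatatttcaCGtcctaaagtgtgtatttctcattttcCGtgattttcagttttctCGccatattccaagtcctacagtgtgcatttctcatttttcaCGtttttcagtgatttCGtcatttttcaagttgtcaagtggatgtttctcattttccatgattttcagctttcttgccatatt
Gm10716 and Irf2bp1 had some of the widest gaps between the parents of the recombinant strains, C57BL/6J and C3H/HeJ.
Gm10716, chr9:3029643-3029942: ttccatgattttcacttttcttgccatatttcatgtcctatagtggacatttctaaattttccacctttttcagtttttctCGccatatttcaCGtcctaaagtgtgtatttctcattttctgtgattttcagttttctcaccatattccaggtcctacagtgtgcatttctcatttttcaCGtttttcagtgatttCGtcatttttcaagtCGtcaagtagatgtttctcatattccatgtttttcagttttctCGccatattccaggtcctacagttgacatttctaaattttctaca
Irf2bp1, chr7:19588239-19588538: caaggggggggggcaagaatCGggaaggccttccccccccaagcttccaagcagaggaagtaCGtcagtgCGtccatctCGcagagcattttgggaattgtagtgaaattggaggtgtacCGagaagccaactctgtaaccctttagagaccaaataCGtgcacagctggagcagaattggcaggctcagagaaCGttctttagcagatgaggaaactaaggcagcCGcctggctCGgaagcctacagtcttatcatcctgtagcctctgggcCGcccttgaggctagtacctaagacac
The windows at Slc2a2 and Smarcc1 were added after their values were seen, as a liver gene and as a promoter with 1 low strain.
Slc2a2, chr3:28620727-28621026: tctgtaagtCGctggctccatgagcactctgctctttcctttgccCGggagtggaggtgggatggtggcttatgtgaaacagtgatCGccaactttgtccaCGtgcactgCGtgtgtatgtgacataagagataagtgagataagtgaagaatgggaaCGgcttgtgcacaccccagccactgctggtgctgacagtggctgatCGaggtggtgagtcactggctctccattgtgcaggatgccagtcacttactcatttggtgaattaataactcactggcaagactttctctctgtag
Smarcc1, chr9:110034433-110034732: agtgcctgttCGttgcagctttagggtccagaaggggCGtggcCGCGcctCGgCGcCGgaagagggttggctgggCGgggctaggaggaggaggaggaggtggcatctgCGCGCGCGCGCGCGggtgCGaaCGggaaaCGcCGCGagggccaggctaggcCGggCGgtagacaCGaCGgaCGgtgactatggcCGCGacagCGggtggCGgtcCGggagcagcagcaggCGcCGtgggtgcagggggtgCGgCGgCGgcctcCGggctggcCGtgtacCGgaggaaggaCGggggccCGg
The windows at Gm10720, Gm11167 and Gm10716 are copies of 1 repeat with a GC content of 33.7 to 34.7%, and they share unbroken runs of 60 to 96 bases, whereas no other pair of the 10 windows shares a run longer than 12. The promoter windows at Smarcc1 and Ndel1 hold 40 and 30 CG dinucleotides, and the Pisd-ps1 window 4. None of the 8 motifs that were searched (given with the sequence features below) occurs in these 10 windows.

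Variable sites spanned a wide part of the percentile scale. The median range, from the lowest to the highest inbred strain with a peak, was 50.2 points for the 390 sites, against 31.4 points for the 18618 other autosomal union sites called in 6 or 7 strains and 16.5 points for 1165 sites of the deposited common list called in as many. The middle 50% of the variable sites had ranges from 35.9 to 64.6 points. A range of 30 points or more was found at 318 of them (81.5%), while the background, the same share among the other sites, was 52.7%. The ranking reflects the authors' choice of these sites and is no independent finding. In strength they were ordinary, with a median percentile of 67.01 against 66.01 for the other sites, but their lowest strain stood lower (median 30.3 against 42.2) and their highest strain higher (85.6 against 79.8). On a log2 scale, that is log2 signal relative to the median of the list, the median range was 1.78. It was 1.26 at the other sites and 1.00 at the common sites. At the 325 variable sites with at least 90% of their 50-mers found only once in the reference it was 1.66.

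**Figure D1:**
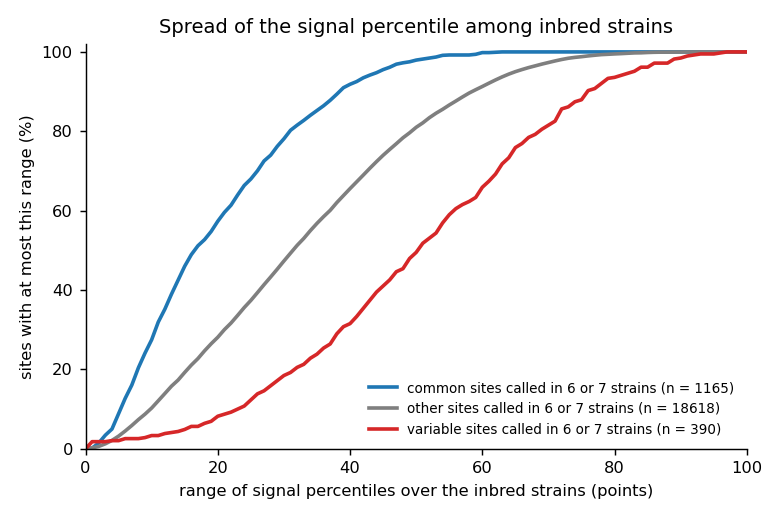
Share of sites (%, vertical axis) whose range of signal percentiles over the inbred strains is at most the value on the horizontal axis (points), for variable, other and common sites called in 6 or 7 strains. The curve of the variable sites lies to the right of both others over most of the axis, with medians of 50.2, 31.4 and 16.5 points.

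Sites just inside and outside the criterion differed more in strength than in spread. Variable sites called in 5 strains, 207 in all, had a median range of 49.96 points and a median percentile of 53.2. Those called in 6 strains had 50.5 points and 62.0, and those called in 7 strains 48.4 points and 74.98. The width of the merged site grew alongside, from a median of 552 bp at 5 strains to 765 bp at 6 and 1176 bp at 7. A merged site spans the peaks of all lists there, so its width depends on the number of lists by construction. The strength of a site and the number of lists that call it are likewise not independent.

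Where all 7 strains had a peak, they mostly put its summit at about the same place. The summits of the 184 sites lay within a median of 72 bp of each other, and within 100 bp at 109 of them (59.2%, against 73.9% of the other sites called in 7 strains). At 32 sites (17.4%, against 7.14%) they were more than 500 bp apart. The peak was wider in the highest strain than in the lowest at 334 of 390 sites (85.6%, against 73.0% of the other sites), with a median width of 692 bp against 393 bp. At the other sites these widths were 639 and 468 bp.

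C57BL/6J was the highest strain and A/J or C3H/HeJ the lowest more often than any other. A/J was lowest at a smaller share than among the other sites (20.3% against 26.3%). C57BL/6J was highest at 99 sites (25.4%, 95% interval 21.1 to 30.01%), and the background for it was 17.9%. The next were A/J and BALB/cJ at 68 sites each (17.4%; background 25.6% and 16.1%). DBA/2J and C3H/HeJ led at 48 each (12.3%; background 8.78% and 13.0%), CBA/J at 33 (8.46%; background 11.3%) and AKR/J at 26 (6.67%; background 7.16%). Exact Clopper-Pearson intervals are used here, and they cover counting error only and treat sites as independent, which neighbouring sites are not.

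At the other end, A/J was lowest at 79 sites (20.3%; background 26.3%) and C3H/HeJ at 77 (19.7%, interval 15.9 to 24.05%; background 9.53%). DBA/2J was lowest at 67 (17.2%; background 22.2%), BALB/cJ at 64 (16.4%; background 11.0%), C57BL/6J at 41 (10.5%; background 16.8%), and AKR/J and CBA/J at 31 each (7.95%; background 7.22% and 6.91%). The pair met most often was C57BL/6J highest with C3H/HeJ lowest, at 32 sites (8.21%, against 3.35% of the other sites). Among the 325 sites with at least 90% of their 50-mers found only once in the reference, C57BL/6J was highest at 86 (26.5%) and C3H/HeJ lowest at 58 (17.8%), while DBA/2J was highest at 27 (8.31%).

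The order of the strains at the top depended on the scale. With log2 signal relative to the median of the list in place of percentiles, C57BL/6J was highest at 12.8% of the variable sites and 7.72% of the other sites, and A/J at 32.6% and 44.5%. C3H/HeJ was lowest at 23.1% and 11.8% on that scale. The shares of C57BL/6J and A/J thus moved by more than 1.5 times with the scale, while the excess of C57BL/6J and the deficit of A/J at the top, and the excess of C3H/HeJ at the bottom, had the same direction on both.

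**Figure D2:**
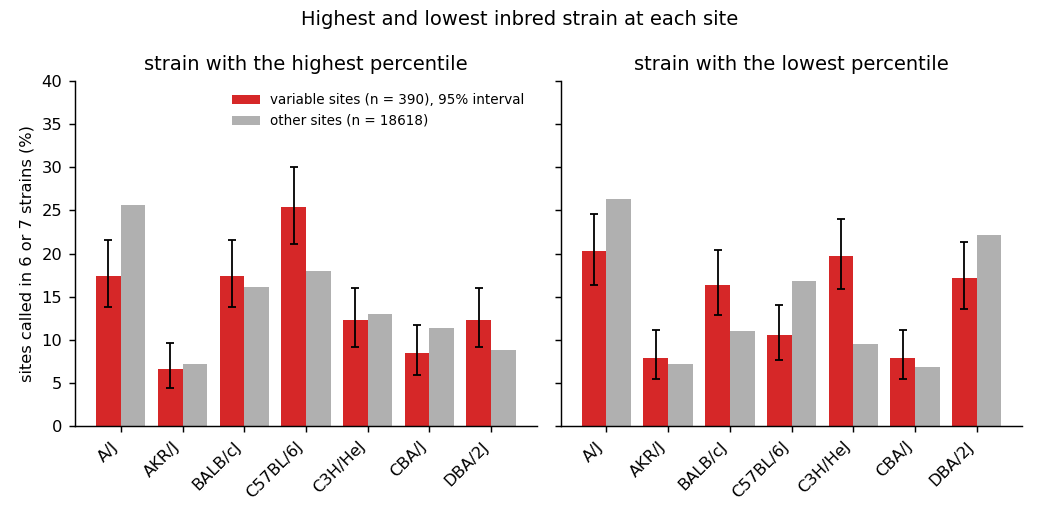
Share of sites called in 6 or 7 strains (%, vertical axis) at which each inbred strain has the highest (left) or the lowest (right) signal percentile. Red bars are the 390 variable sites with exact 95% intervals, grey bars the 18618 other sites, and C57BL/6J (25.4%) leads on the left and A/J (20.3%) and C3H/HeJ (19.7%) on the right. The grey bar of A/J on the right (26.3%) is higher than its red bar.

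More sites had 1 strain that dropped out at the bottom than 1 that stood out at the top. The lowest strain was at least 10 points below the next at 221 sites (56.7%; background 39.4%), and the highest at least 10 points above the next at 87 (22.3%; background 18.8%). Of the sites called in all 7 strains, 84 of 184 (45.7%) had their largest gap between the lowest strain and the other 6, close to the 48.2% of the other sites. The single low strain was A/J at 29 of them (15.8%, against 24.1%), BALB/cJ at 15 (8.15%, against 4.11%), DBA/2J at 14 (7.61%, against 8.76%) and C3H/HeJ at 13 (7.07%, against 1.28%). Of the 13 with C3H/HeJ low, 3 had 90% or more unique 50-mers, and of the 15 with BALB/cJ low, 7 had. A gap that set C57BL/6J and DBA/2J above the other 5 strains occurred at 7 sites (3.80%, against 0.437%), of which 4 had 90% or more unique 50-mers. Several of these 7 are neighbouring sites around Sfi1 on chromosome 11, so they do not count as separate loci. The largest gap had a median of 22.4 points at the variable sites and 11.7 points at the others, and the 184 sites showed 58 different splits of the strains.

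The standing of A/J followed base composition. Across 304 variable sites with a peak in A/J, the difference between A/J and the median of the other inbred strains had a Spearman correlation of 0.52 with GC content, and across 15467 other sites of 0.61. These sites share 1 A/J list, and no p-value is given. For the other 6 strains the coefficient at the variable sites lay between -0.20 (C57BL/6J) and 0.20 (C3H/HeJ). At the other sites it was -0.39 for C57BL/6J, -0.27 for BALB/cJ and 0.24 for AKR/J, and lay between -0.17 and 0.07 for the remaining 3. Variable sites where A/J was highest had a median GC content of 62.7%, and 55 of the 68 (80.9%) held a transcription start site within 1 kb. Where A/J was lowest the median was 51.6% and the share 31.6%. Other sites where A/J was highest had similar values, 61.4% GC and 81.9% with a start site.

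**Figure D3:**
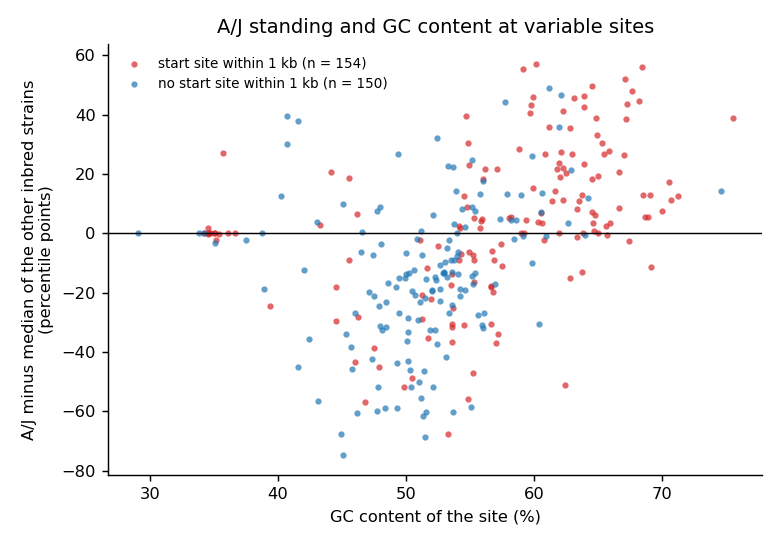
Percentile of A/J minus the median percentile of the other inbred strains (points, vertical axis) against the GC content of the site (%, horizontal axis) at the 304 variable sites with an A/J peak, coloured by whether a start site lies within 1 kb. Points below 50% GC lie mostly below 0 and points above 60% GC mostly above it.

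The 206 sites called in 6 strains were missed by A/J at 86 (41.7%), DBA/2J at 40 (19.4%), BALB/cJ at 28 (13.6%), AKR/J at 18 (8.74%), C57BL/6J at 15 (7.28%), C3H/HeJ at 12 (5.83%) and CBA/J at 7 (3.40%). Among 4893 other sites called in 6 strains A/J was the missing one at 64.4%, DBA/2J at 19.2%, C57BL/6J at 7.93%, AKR/J at 3.19%, BALB/cJ at 2.35%, CBA/J at 2.06% and C3H/HeJ at 0.858%. The sites that A/J lacked had a median GC content of 49.5%, and 13 of 86 (15.1%) had a start site within 1 kb. The other sites that A/J lacked had the same GC content to this precision (49.5%) and a start site at 11.9%. At the variable sites that A/J lacked, the strains with a peak stood at a median percentile of 59.4, against 46.2 at the other sites without an A/J peak. The median over all variable sites called in 6 strains was 62.0. Sites missed by each other inbred strain showed the same direction, for example 54.3 against 38.6 for BALB/cJ and 75.1 against 26.8 for C3H/HeJ. Of the 12 variable sites that C3H/HeJ lacked, 6 lie in the chromosome 9 repeat shown above. Of the 28 that BALB/cJ lacked, 4 lie around Sfi1 on chromosome 11 and 4 in a repeat-rich group on chromosome 8, both described below.

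Some of these sites were among the strongest peaks of the strains that had them. The promoter of Ndel1, which encodes a regulator of the motor protein dynein, had percentiles of 98.6 in A/J and C3H/HeJ, 98.2 in CBA/J, 97.9 in AKR/J, 96.6 in BALB/cJ and 95.4 in C57BL/6J, and no peak in DBA/2J. Both recombinant strains were at 95.1 or above. A site in an intron of Pdilt, a testis member of the protein disulfide isomerases, stood between 80.8 and 89.1 in 6 strains and had no peak in A/J. The promoter of Uhrf1bp1l stood between 71.8 and 95.4 in 6 strains and was not called in DBA/2J. An intron site of Mtf1, the transcription factor that responds to zinc and other metals, stood between 72.2 and 92.6 in 6 strains and was not called in AKR/J. The other 4 of the 8 sites with the highest minimum lie in the repeat on chromosome 9 and were missed by C3H/HeJ. A site without a peak may be accessible below the caller's threshold, so these are differences in calls.

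At the promoter of Recql4, a DNA helicase (chr15:76540271-76541512), the percentile was 96.7 in C57BL/6J, 88.7 in DBA/2J, 88.1 in AKR/J and 65.8 in A/J but 21.997 in C3H/HeJ, 19.2 in CBA/J and 12.7 in BALB/cJ. The strains thus fell into an upper and a lower set, with BXH2/TyJ at 43.8 and BXH19/TyJ at 20.5. At the promoter of Diablo, which releases caspases from inhibition in apoptosis (chr5:123973512-123974731), A/J was at 97.7 and BALB/cJ and C57BL/6J at 87.9 and 87.2, with AKR/J at 53.2, C3H/HeJ at 46.3, CBA/J at 21.8 and DBA/2J at 14.5. Upstream of Irf2bp1, a transcriptional corepressor (chr7:19587837-19588941), the value was 89.1 in C57BL/6J and 6.01 in C3H/HeJ, with the other inbred strains between 25.5 and 70.9. All 3 of these sites have only unique 50-mers. The promoter of Zfp960, a zinc finger protein gene (chr17:17200535-17201350), had DBA/2J at 99.4 and CBA/J at 81.3, AKR/J, C57BL/6J and C3H/HeJ between 50.7 and 62.1, BALB/cJ at 26.5 and A/J at 7.61, with 66.2% unique 50-mers.

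Wide ranges were also found away from promoters. At a site 25681 bp from the start of Rrm2, a subunit of ribonucleotide reductase (chr12:25419575-25420225), C57BL/6J was at 0.61 and C3H/HeJ at 88.9, the farthest below and the farthest above the next strain that either reached at any site called in 7 strains. The others were at 27.4 (A/J), 38.9 (DBA/2J), 50.999 (AKR/J), 51.9 (BALB/cJ) and 65.9 (CBA/J). In log2 signal relative to the list median, C57BL/6J (-0.650) and A/J (-0.588) were close, so the gap below A/J is mostly one of rank. BXH19/TyJ was at 67.8, and BXH2/TyJ had no peak there. At the site 64087 bp from the start of St3gal5, the enzyme that makes ganglioside GM3 (chr6:72111694-72112871), AKR/J was at 6.18 and the other 6 strains between 58.6 and 95.9. At the site whose nearest protein-coding start is that of Ywhaq, 150698 bp away (chr12:21574196-21575015), DBA/2J was at 95.8 and A/J at 7.17, with the others between 42.0 and 68.3.

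Each strain had a site that set it apart. CBA/J was at 39.9 at the promoter of Smarcc1, a core subunit of the SWI/SNF chromatin remodelling complexes (chr9:110034040-110035125), where every other strain, recombinant ones included, was at 97.02 or above. DBA/2J was at 21.2 at the promoter of Arl4a, a small GTPase (chr12:40763739-40765014), and the other inbred strains stood between 88.2 and 99.2. A/J was at 5.69 in an intron of Nfil3, a repressor in the circadian clock and in immune cells (chr13:53070032-53070579), with the others between 66.5 and 82.8. BALB/cJ was at 19.9 in an exon near the start of Myadm, with the others between 81.7 and 91.8, and this site has 86.3% unique 50-mers. The low strain was separated from the next by 57.1 points at Smarcc1, 67.1 at Arl4a, 60.8 at Nfil3 and 61.7 at Myadm.

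High outliers were closer to the rest. A/J was at 81.6 upstream of Jund, a subunit of the AP-1 transcription factor (chr8:73220348-73220984), 33.8 points above C57BL/6J at 47.8, and the other 5 stood between 17.5 and 39.1. C57BL/6J was at 68.8 in an exon of 9430023L20Rik, 32.7 points above AKR/J. BALB/cJ was at 76.7 at the promoter of 2410001C21Rik, 28.2 points above C57BL/6J. The gap was only 5.60 points for AKR/J, at the promoter of Cbwd1 (99.0), and 5.44 points for CBA/J, in an intron of Tmprss4 (67.2), so no site called in 7 strains set these 2 strains high above the rest.

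**Figure D4:**
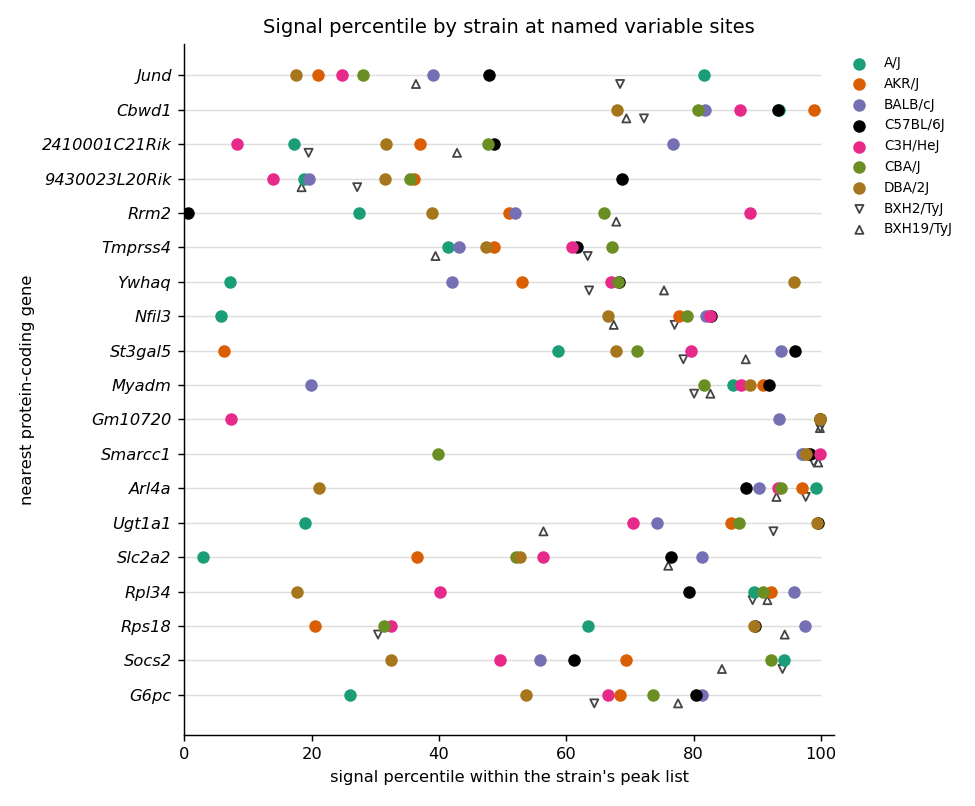
Signal percentile in each strain (horizontal axis, 0 to 100 within the strain's own peak list) at named variable sites, 1 row per site, labelled by the nearest protein-coding gene. Filled circles are the 7 inbred strains and open triangles the recombinant strains (none drawn where a strain has no peak). A single low strain is seen at Smarcc1 (CBA/J, 39.9), Arl4a (DBA/2J, 21.2), Nfil3 (A/J, 5.69) and Myadm (BALB/cJ, 19.9).

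By the nearest protein-coding start, genes of 20 lists, which cover liver pathways and families such as ribosomal and zinc finger proteins, were near 45 of the 390 sites (11.5%) and near 10.6% of the other sites. None of the lists of fatty acid oxidation, of cholesterol and bile acid metabolism, of interferon response or of major urinary proteins had a site, where the other sites numbered 96 (0.516%), 84 (0.451%), 35 (0.188%) and 0. Cytochrome P450 genes had 6 sites (1.54%, against 0.371%), solute and ABC transporters 11 (2.82%, against 2.61%), ribosomal proteins 5 (1.28%, against 0.612%) and zinc finger proteins 4 (1.03%, against 2.00%). Glucose metabolism, insulin and growth factor signalling and apolipoproteins had 3 sites each (0.769%, against 0.392%, 0.4995% and 0.236%), hepatocyte transcription factors and the major histocompatibility complex 2 each (0.513%, against 0.806% and 0.0645%). Conjugation enzymes, carboxylesterases, serpins, lipid synthesis, circadian clock, acute phase proteins and amino acid metabolism had 1 each (0.256%). Their shares of the other sites ran from 0.0483% (carboxylesterases) to 0.505% (lipid synthesis). Counts this small do not set a list apart.

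In glucose metabolism, all 3 sites were lowest or uncalled in A/J, which was lowest at 79 and uncalled at 86 of all 390 sites. Slc2a2 encodes GLUT2, the glucose transporter of hepatocytes, and its promoter site (chr3:28620590-28621163) was at 81.3 in BALB/cJ, 76.5 in C57BL/6J, 56.3 in C3H/HeJ, 52.8 in DBA/2J, 52.0 in CBA/J, 36.6 in AKR/J and 2.90 in A/J. BXH19/TyJ was at 76.0 and BXH2/TyJ had no peak. G6pc encodes glucose-6-phosphatase, the last step of glucose release, and its promoter (chr11:101228594-101229457) was at 26.1 in A/J and between 53.6 and 81.3 in the other inbred strains. In an exon of Gpi1, a glycolytic isomerase, A/J had no peak, DBA/2J was at 1.46, AKR/J at 20.6 and C57BL/6J at 24.8, and C3H/HeJ, BALB/cJ and CBA/J stood between 52.6 and 68.8. In log2 signal relative to the list median, DBA/2J (-0.496) was above AKR/J (-0.559) at this site. GC content was 49.8% at Slc2a2, 47.9% at G6pc and 52.2% at Gpi1.

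Sites at detoxification genes differed most at the Ugt1a locus. Ugt1a1 conjugates bilirubin, and the intron site beside its start (chr1:90109623-90111272) was at 99.5 in C57BL/6J, 99.4 in DBA/2J, 87.2 in CBA/J, 85.9 in AKR/J, 74.3 in BALB/cJ, 70.4 in C3H/HeJ and 19.0 in A/J. In an intron of Nr1i2, the gene of the xenobiotic receptor PXR, C57BL/6J was at 6.91 and DBA/2J at 27.8, 4 strains stood between 64.8 and 76.2, and A/J had no peak. BXH19/TyJ was at 74.4, and BXH2/TyJ had no peak. In an intron of Cyp2j11, CBA/J was at 83.0 and A/J at 7.71, with no peak in BALB/cJ. Of the 6 cytochrome P450 sites, those at Cyp2c67, Cyp2d10 and Cyp2d37-ps were not called in A/J, and the cytochrome P450 and Ugt families hold near-identical copies, so that reads may be shared among them.

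In lipid and amino acid metabolism, a site in an intron of Dgat2, which completes triglyceride synthesis, was at 87.0 in BALB/cJ, 80.1 in AKR/J, 75.7 in C57BL/6J, 56.9 in A/J, 49.9 in C3H/HeJ and 24.8 in CBA/J, and was not called in DBA/2J. BXH2/TyJ, at 15.9, was below both of its parents. In an intron of Prodh2, a hydroxyproline dehydrogenase, C57BL/6J was at 85.9, AKR/J, C3H/HeJ and CBA/J between 62.8 and 74.1, BALB/cJ at 23.5 and A/J at 6.23, again without a peak in DBA/2J. This site has 78.6% unique 50-mers. The promoter of Socs2, an inhibitor of growth hormone signalling, was at 94.1 in A/J and 92.1 in CBA/J, between 49.6 and 69.4 in 4 strains and at 32.4 in DBA/2J. At the promoters of ribosomal protein genes DBA/2J was low at Rpl34 (17.7, with C3H/HeJ at 40.1 and the others at 79.3 or above) and not called at Rps20, but at 89.5 at Rps18, where AKR/J was lowest (20.6).

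Transporter sites were led by Slc25a37, which encodes mitoferrin-1, the iron importer of mitochondria. Its 3 intron sites on chromosome 14 lie between 14439 and 28253 bp from the start and were highest in C57BL/6J, at 95.3, 99.4 and 86.6. The second strain stood at 64.4, 76.6 and 41.4, and it was CBA/J each time. Both recombinant strains were below C57BL/6J at all 3, at 71.5, 74.4 and 38.1 in BXH2/TyJ and 65.8, 72.5 and 19.0 in BXH19/TyJ. A site near Slc25a39, another mitochondrial carrier, was at 89.4 in C57BL/6J and 33.9 in A/J, and was not called in DBA/2J.

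There were 14 groups of 3 or more sites with less than 500 kb from each to the next, which held 72 sites in all. The 6 largest are described. Of the 5 groups of 4 sites, these are the first 3 by chromosome name. On chromosome 1, the sites at Ugt1a1, Heatr7b1, Hjurp and Trpm8 lie within 75.7 kb, and C57BL/6J was highest and A/J lowest at all 4, where BXH2/TyJ stood between 92.5 and 98.6 and BXH19/TyJ between 56.4 and 76.9. On chromosome 14, the Slc25a37 sites and 1 at R3hcc1 had C57BL/6J highest at all 4. On chromosome 11, sites at Tubg1, G6pc, Nbr1 and Rdm1 within 494 kb had A/J lowest at 3 of 4. Of these 12 sites, 11 had at least 90% unique 50-mers.

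The 3 largest groups hold sites with repeated sequence. On chromosome 11, 11 sites over 69.6 kb (chr11:3026791-3096368) surround Sfi1, a centrosomal protein gene, and C57BL/6J and DBA/2J were at percentile 95 or above at all 11. Among A/J, AKR/J, C3H/HeJ and CBA/J a value as high occurred at 2 of the 11. At the site near Pisd-ps1, C57BL/6J was at 99.9, DBA/2J at 99.8, A/J at 90.1, AKR/J at 76.1, C3H/HeJ at 58.1, CBA/J at 54.6 and BALB/cJ at 3.91, and at another C3H/HeJ was at 3.35 and BALB/cJ had no peak. BALB/cJ lacked a peak at 4 sites and BXH19/TyJ at 4, of which 3 were the same. BXH2/TyJ stood above BXH19/TyJ at all 7 sites that both had. The median share of unique 50-mers was 96.2% and the lowest 61.6%.

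On chromosome 8, 9 sites over 261 kb near Gm15319 and 4930467E23Rik (chr8:19772255-20033329) had a median of 35.2% unique 50-mers. DBA/2J was highest at 7 of them, with a median percentile of 99.7, and BALB/cJ was lowest or had no peak at 7. On chromosome 9, 14 sites over 35.1 kb (chr9:3003316-3038388) consist of the repeat shown above, and none had more than 33.3% unique 50-mers. Medians there were 99.8 to 99.9 in A/J, AKR/J, C57BL/6J, CBA/J, DBA/2J and both recombinant strains, 90.8 in BALB/cJ and 27.1 in C3H/HeJ, which had no peak at 6 of the 14 and was lowest at the other 8. The part of mapping in these values was not tested.

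A few sites hardly differed in percentile although the count test called them variable. The range was under 10 points at 13 sites, and at 11 of these each strain with a peak stood above percentile 90. Percentiles are compressed at that end, since the log2 range at the 13 was 0.403 to 3.75 with a median of 2.16. The site with the smallest range, 0.027 points, lies in an intron of Gm11168 in the chromosome 9 repeat, at percentile 99.9 or above in all 9 strains. Its log2 signal relative to the list median was nevertheless 3.58 in C3H/HeJ, 5.08 in BALB/cJ and 6.03 to 6.72 in the other inbred strains. The same order at the bottom was seen at a site near Chl1 on chromosome 6, at 3.35 in C3H/HeJ and 4.63 in BALB/cJ. It was not seen at the other sites with a range under 1 point. There C57BL/6J, BALB/cJ or C3H/HeJ was the lowest inbred strain, in other orders. Of the 13, 7 had less than 90% unique 50-mers.

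In position, the variable sites were less often at promoters than sites called as widely. A transcription start site of any annotated gene lay within 1 kb of 167 (42.8%, 95% interval 37.9 to 47.9%), against 53.5% of the other sites and 67.4% of the common sites, and against 34.9% of the variable sites called in 1 to 5 strains. Of the rest, 25.9% were intergenic, 85 (21.8%) in introns and 37 (9.49%) in exons. The spread was about the same in each place, with median ranges of 50.2 points at promoters, 46.3 in exons, 49.1 in introns and 50.6 in intergenic sequence. At the other sites it was narrower at promoters (23.5 points) than elsewhere (37.4 to 38.7 points). The variable sites were chosen for their variation in these same libraries, so this contrast is no independent finding.

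In sequence they held less GC and fewer CpG than the other sites. The median GC content was 52.9% against 55.7%, and the ratio of observed to expected CG dinucleotides 0.335 against 0.450, and 0.597 at common sites. Of the 390 sites, 65 had less than 90% unique 50-mers and 31 (7.95%) less than 50%, compared with 0.156% of the other sites. Of those 31, 14 are the chromosome 9 group and 7 belong to the chromosome 8 group. With repeat-rich sites left out, GC content was 53.6% and the CpG ratio 0.316. The authors' alignment kept reads with 1 location, and the part that mapping had in their variation was not tested.

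Motifs of 8 factor families were searched on both strands of the 300 bp windows, and were rare in all sets. The HNF4 motif CAAAGTCCA was found in 12 windows (3.08%, against 1.40% of the other sites and 1.49% of all union sites), and the C/EBP motif TTGCNNCAA in 13 (3.33%, against 1.87% and 2.16%). The FOXA motif TGTTTAC was found in 13 (3.33%, against 4.15% and 4.59%), the STAT motif TTCNNNGAA in 22 (5.64%, against 6.62% and 7.51%) and the HNF1 motif GTTAATNAT in 2 (0.513%, against 0.859% and 1.19%). Of the promoter motifs, CCGGAAGT of the ETS family was found in 7 windows (1.79%, against 3.79% and 1.86%), GCGCATGCG of NRF1 in 7 (1.79%, against 1.29% and 0.721%) and the cyclic AMP element TGACGTCA in 5 (1.28%, against 1.58% and 0.916%). All 7 ETS matches were at promoters, at 4.19% of 167 windows, where the other promoters had 6.42%.

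The recombinant strains give values at these sites that played no part in choosing them. Of the 390 sites, 375 (96.2%) were called in BXH2/TyJ and 362 (92.8%) in BXH19/TyJ, against 96.0% and 97.7% of the other sites. Where both had one, they differed by a median of 10.3 points, and by 20 points or more at 92 of 352 sites (26.1%; background 16.2%). Their parents differed by a median of 19.0 points at the variable sites and 8.64 points at the other sites.

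Where C57BL/6J and C3H/HeJ were at least 20 points apart, at 178 variable sites, BXH2/TyJ was nearer to C57BL/6J at 88 of the 170 sites it was called at (51.8%, 95% interval 44.0 to 59.5%; background 32.3%). BXH19/TyJ was nearer to C57BL/6J at 55 of 162 (33.95%, interval 26.7 to 41.8%; background 30.2%). The share of BXH2/TyJ nearer to C57BL/6J was lower, though above 32.3%, at sites with 90% or more unique 50-mers (46.8%, interval 38.4 to 55.4%) and with 1 site per run of neighbours less than 1 Mb apart (47.6%, interval 37.6 to 57.6%). BXH2/TyJ sided with C57BL/6J more where C57BL/6J was the higher parent (60.3% of 121) than where C3H/HeJ was (30.6% of 49). At the other sites the shares were 31.1% of 1593 and 33.2% of 2142. The values of BXH2/TyJ lay between those of the parents at 103 of 170 sites, above both at 41 and below both at 26, and those of BXH19/TyJ at 105, 26 and 31 of 162.

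At Rps18, BXH19/TyJ (94.3) was near C57BL/6J (89.7) and BXH2/TyJ (30.4) near C3H/HeJ (32.5). At the site near Pisd-ps1 the reverse was seen, with BXH2/TyJ at 99.2 beside C57BL/6J and BXH19/TyJ at 26.0, below C3H/HeJ. At Irf2bp1 both (77.01 and 71.1) stood nearer to C57BL/6J, and at Recql4 both stood nearer to C3H/HeJ. At Iqsec1, a gene of a vesicle transport regulator, C57BL/6J was at 8.34, C3H/HeJ at 83.6, BXH2/TyJ at 64.5 and BXH19/TyJ at 39.0. Over 154 sites with all 4 strains, both recombinant strains were nearer to C57BL/6J at 34, both nearer to C3H/HeJ at 61, and on different sides at 59, namely 42 with BXH2/TyJ and 17 with BXH19/TyJ nearer to C57BL/6J. At 3635 other sites these numbers were 497, 1896, 662 and 580. Both recombinant strains were on the same side at 61.7% of the variable sites and 65.8% of the other sites.

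**Figure D5:**
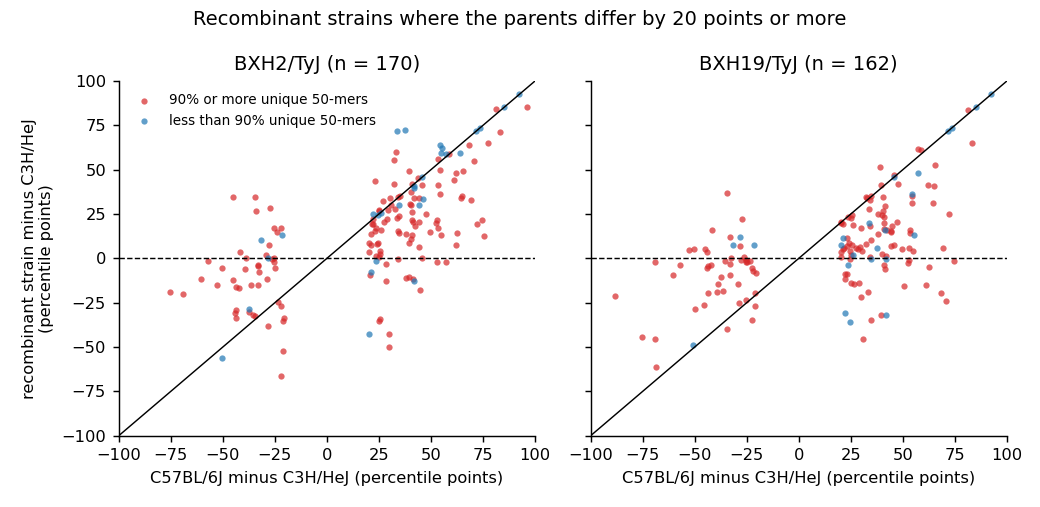
Percentile of BXH2/TyJ (left, 170 sites) and BXH19/TyJ (right, 162 sites) minus that of C3H/HeJ (points, vertical axis) against C57BL/6J minus C3H/HeJ (points, horizontal axis) at variable sites where these parents are 20 points or more apart. The solid diagonal is the level of C57BL/6J and the dashed line that of C3H/HeJ, and points lie between and beyond both lines, nearer to the diagonal at 51.8% of sites on the left and 33.95% on the right.

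Sites less than 2 Mb apart on a chromosome tended to resemble the same parent. Among pairs of such variable sites less than 2 Mb apart, the nearer parent was the same in 68 of 89 pairs (76.4%) in BXH19/TyJ and in 100 of 123 (81.3%) in BXH2/TyJ, compared with 56.9% and 52.0% of pairs 10 to 50 Mb apart. In pairs 2 to 10 Mb apart it was 55 of 89 (61.8%) and 40 of 92 (43.5%). The share in BXH2/TyJ thus did not fall steadily with distance. Limited to sites with 90% or more unique 50-mers, pairs less than 2 Mb apart had 35 of 46 (76.1%) and 34 of 53 (64.2%). Such pairs 10 to 50 Mb apart had 55.9% and 52.2%. Pairs share sites and are not independent, and no test was made. Likeness to strains that are not a parent was as large. The median difference from BXH19/TyJ over the variable sites was 8.28 points for CBA/J, 8.65 for C3H/HeJ, 10.1 for BALB/cJ and 13.8 for C57BL/6J, and that from BXH2/TyJ was 10.9 for AKR/J, 11.5 for CBA/J, 13.02 for C57BL/6J and 14.4 for C3H/HeJ. The nearer parent was therefore not taken as the genotype of a site.

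Among the inbred strains the closest at these sites were AKR/J and CBA/J, with a median difference of 8.34 points over 365 sites, followed by C3H/HeJ and CBA/J with 9.13 points. The pairs farthest apart were A/J with C3H/HeJ (24.1 points over 292 sites) and A/J with BALB/cJ (24.1 points over 276). A/J also made the largest differences at the other sites, 16.7 points from C57BL/6J and 15.3 from BALB/cJ. C57BL/6J and C3H/HeJ differed by 19.0 points here and by 8.64 at the other sites.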

How the data were processed

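FAIRE-seq libraries of liver from 9 strains, with 2 mice each, were used. The authors aligned reads with Bowtie to mm9, or for the inbred strains to versions of it that carried each strain's SNPs, kept reads with a single location, called peaks with F-seq and combined the replicates with IDR. The recombinant strains were aligned to mm9 and to the C3H/HeJ version, and which alignment the deposited lists rest on is not stated. Versions of F-seq, IDR and DESeq are not stated. Each deposited list holds peak positions (start, end and summit offset, as the authors' other columns) and the authors' F-seq signal per peak, with no stated scaling between strains. The variable and common lists hold positions only, and DESeq was run by the authors on read counts that were not analysed here. The study lists reads per mouse, which differ between strains. A/J had the lowest totals before filtering, whereas a BXH19/TyJ mouse had the fewest reads after it. Read numbers were not used here, and the part of depth in the standing of A/J was not tested.

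The 7 inbred lists were merged to a union, which held every variable and common site at the same coordinates. A strain was called at a site where a peak overlapped it by 1 bp or more, and the peak with the highest signal gave its value. Percentiles are ranks with averaged ties. Start sites come from GENCODE M1 on NCBIM37, the assembly of mm9, and the nearest gene is the nearest start of a protein-coding gene. Uniqueness is the share of 50-mers, taken every 10 bp, that occur once in that reference.

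The members, gene lists, motifs and comparisons were chosen with earlier results of these data known. Named sites are the 12 sites called in 7 strains with the largest range, the 8 called in 6 with the highest minimum, for each strain the site farthest above and the site farthest below the next strain, up to 20 sites at listed genes, the 6 with the largest gap between C57BL/6J and C3H/HeJ among those called in both recombinant strains, the 6 largest groups and the site with the smallest range. Sites outside this rule that are named (those at Heatr7b1, Hjurp, Trpm8, Tubg1, Nbr1, Rdm1 and R3hcc1 as parts of groups, the second Sfi1 site, Chl1 and the sites in the closing section) were chosen after their values were seen. A site that meets this rule is not reported here. Samples were grouped by strain from the labels. No test was made, since no replicate values exist and sites are not independent. Intervals (Clopper-Pearson, exact) are at the 95% level. Alternatives changed the overlap, the scale, the strains used, the start site window, the parental gap and the sites used. Merging, calls, percentiles and extremes were tested on simulated data and gave the right answer in 20 of 20 runs each. The parent rule recovered the simulated parent at over 97% of sites in 20 of 20 runs. In that simulation each recombinant value was the level of 1 parent with small noise. Many values of the recombinant strains here lay above or below both parents, so the simulation does not show how well the rule works on them. Computations used matplotlib 3.10.9, numba 0.67.0, pysam 0.24.0, scipy 1.17.1, pandas 2.3.3 and numpy 2.4.6 under Python 3.11.15.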

Additional observations from a re-analysis of the deposited data

How the results depend on the processing

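No paired analysis was possible because the 2 replicates of a strain are combined in 1 list, and leaving out a replicate was not possible for the same reason. The number of sites was 390 also when a peak had to cover at least 50% of the site or have 50% of its length in it, 395 with X and Y kept, 421 to 475 with each inbred strain left out, and 235 with the 20000 strongest peaks of each strain. The median range was 71.4 points with percentile 0 where a strain has no peak (37.9 at the other sites), 58.2 points when ranks were taken among sites called in all 7 strains (34.4 at the other sites), and 42.9 without A/J, 45.8 without BALB/cJ, 45.9 without DBA/2J, 46.1 without C3H/HeJ, 46.3 without C57BL/6J, 48.6 without AKR/J and 48.9 without CBA/J. At the other sites, leaving out a strain gave 23.6 to 30.3 points. C57BL/6J was highest at 12.8% on the log2 scale, where 214 of 390 sites kept both their highest and their lowest strain, and at 22.3 to 26.5% under the other 3 alternatives. C3H/HeJ was lowest at 17.8 to 23.1% under all 4. With the mean signal of several peaks, 358 of 390 sites kept both strains. A start site lay within 2500 bp of 52.8% of the sites (59.5% of the other sites) and within 500 bp of 38.2% (50.9%). BXH2/TyJ was nearer to C57BL/6J at 65.5% where the parents were 1 or more apart in log2 signal, 46.6% for a gap of 10 points and 56.1% for a gap of 30, and BXH19/TyJ at 32.6 to 39.4% under all 5 alternatives. Settings based on unique 50-mers and on 1 site per 1 Mb were added after the data were seen. The cause of these shifts was not tested, except that fewer peaks, fewer strains and a wider window change counts by construction.

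With 1 list per strain, no difference between strains can be set against the spread between mice, and neither sex-linked sites nor mice on other diets were analysed. Absence of a peak is a statement about the caller's threshold, and percentiles above 99 hide differences in signal that the log2 scale shows. Low percentiles can do the opposite and spread small differences in signal over many points, as at Rrm2.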

Other observations

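Sites at genes of the immune system, of growth factor binding and of secreted proteins, which were not described above, differed in other ways, and they were chosen after their values were seen. At the promoter of H2-D1, a class I gene of the major histocompatibility complex (chr17:35399408-35401456), BALB/cJ was at 99.9, DBA/2J at 99.6 and A/J at 98.7, and C3H/HeJ at 91.8, C57BL/6J at 89.1, AKR/J at 83.6 and CBA/J at 77.3. The upper 3 strains are those known to carry the d allele of this gene. The site has 85.5% unique 50-mers, BXH2/TyJ had no peak there, and the part of mapping was not tested. At the promoter of Orm3, an acute phase glycoprotein gene with near-identical copies, DBA/2J was at 91.5, the others with a peak between 41.8 and 58.9, and A/J had none. Of the apolipoprotein sites, that near Apoc1, which encodes an inhibitor of lipoprotein uptake, was at 19.2 in C3H/HeJ and between 39.8 and 59.5 in the other inbred strains, and that near Apoc2, the activator of lipoprotein lipase, was at 14.3 in CBA/J and between 33.1 and 62.9 in 5 strains, with none in A/J. The site near Igfbp2, which binds insulin-like growth factors, had a range of 5.37 points over the 6 strains called (71.2 to 76.6) and no peak in A/J.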
